A study of Mus musculus with 18 samples.

Results

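The fatty acid desaturases and elongases examined here were Scd1, Scd2, Fads1, Fads2, Elovl1, Elovl2, Elovl3, Elovl5, Elovl6 and Elovl7. They were taken by gene symbol from the expression table, and all 10 were found among its 28442 genes. Bulk poly-A RNA sequencing covered 12 advanced tumors and 6 livers of Alb-R26Met mice. In this line, Cre recombinase driven by the Alb promoter switches on a mouse-human chimeric Met transgene at the Rosa26 locus in the liver, and the tumors arise spontaneously. The 6 livers were labelled as non-tumoral but came from mice of the same Alb-R26Met genotype, so the transgene was shared by both groups and no wild-type liver entered the comparison. Livers came from 6 mice aged 52 to 71 weeks and tumors from 11 mice aged 49 to 72 weeks, all males of a mixed C57BL/6JRj and 129S2/SvPasOrlRj background. Tumors 11 and 12 came from 1 mouse.

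Fatty acids made in the liver leave fatty acid synthase saturated, mainly as palmitate. The Elovl enzymes catalyze the condensation step that lengthens a chain, and stearoyl-CoA desaturases such as Scd1 and Scd2 place an unsaturated bond in saturated chains, giving palmitoleate and oleate. Fads2 and Fads1 add further unsaturated bonds to the polyunsaturated fatty acids of the diet, with Elovl5 and Elovl2 acting between and after them on the route to arachidonate and docosahexaenoate. Scd1 is the main stearoyl-CoA desaturase of adult mouse liver, whereas Scd2 is best known from brain and from liver early in life.

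The deposited whole numbers were taken as rounded TPM, a relative level that corrects for transcript length, from the study's methods, although the study calls its table raw counts. Their totals ran from 835144 to 907513 per sample, below the fixed sum of a complete TPM table, and comparisons of levels between genes rest on this reading of the unit. The row listed as Siglece, a sialic acid-binding receptor gene of myeloid cells, took 17.9% to 29.5% of the total in livers and 21.5% to 53.4% in 11 tumors, but 82.9% in tumor 2, where 8718 genes were above 0 against 11508 to 13819 in the other tumors. So large a share is implausible for transcripts of that gene, and its cause was not tested. As deposited, 9 of the 10 genes had their lowest tumor value in tumor 2, and levels were rescaled between samples before testing. Sample descriptions carried the tag E19 (2 livers, 7 tumors) or E20 (4 livers, 5 tumors), whose meaning was not given. Of 10 hepatocyte markers, 7 did not pass the test, and their levels differed widely. Alb, the most abundant, ran from 19995 to 32414 TPM in livers and from 6050 to 53033 TPM in tumors. Hnf4a had means of 47.2 and 41.2 TPM. Cps1 ran from 883 to 2447 TPM in livers and from 3 to 1028 TPM in tumors (log2 difference -1.85, adjusted p = 0.11). Apoa1 was higher in tumors (log2 difference 0.94, adjusted p = 0.0092), and Cyp2e1 and Asgr1 were lower (-2.79, adjusted p = 0.0019 and -0.81, adjusted p = 0.0057).

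Of the 10 genes, 7 were higher in tumors than in livers: Scd1, Scd2, Fads1, Fads2, Elovl2, Elovl5 and Elovl7. None was called lower, and Elovl1, Elovl3 and Elovl6 did not pass the test. Elovl7 was tested only because of its tumor values, since no liver reached the scaled value of 1 used as the filter. Across all 11452 genes tested, 10.3% were called higher, 8.73% lower and 19% in either direction (limma with Benjamini-Hochberg adjustment over all genes, threshold 0.05). The median log2 difference was 1.15 for the 10 genes and -0.04 for all genes tested, and 6 of the 10 were called with a rise of at least 2-fold, against 5.81% of all genes. The count depended on the scaling, with tumor 2 included, and on the tags. Without scaling between samples, Scd2, Fads2 and Elovl7 were called higher and Elovl3 lower, and the median of all genes tested moved from -0.04 to -0.18. Without scaling and with tumor 2 set aside, a choice made after seeing the data, the same 7 genes were called higher and none lower. There, 1446 of all 13301 genes tested were higher. Within E19 alone 4 of the genes were called higher (Scd2, Fads2, Elovl6 and Elovl7) and Elovl3 lower, where 786 of all 10168 genes tested were higher. Within E20 alone 5 were called higher (Scd1, Scd2, Fads1, Fads2 and Elovl5), where 298 of all 10312 genes tested were higher and Elovl7 could not be tested. No gene of the table differed between tags in the size of its difference after adjustment (0 of 11452 by the limma interaction, with 334 at an unadjusted p under 0.05, none of them among the 10). In bulk tissue, more cells that express a gene and more RNA per cell cannot be told apart.

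**Figure D1:**
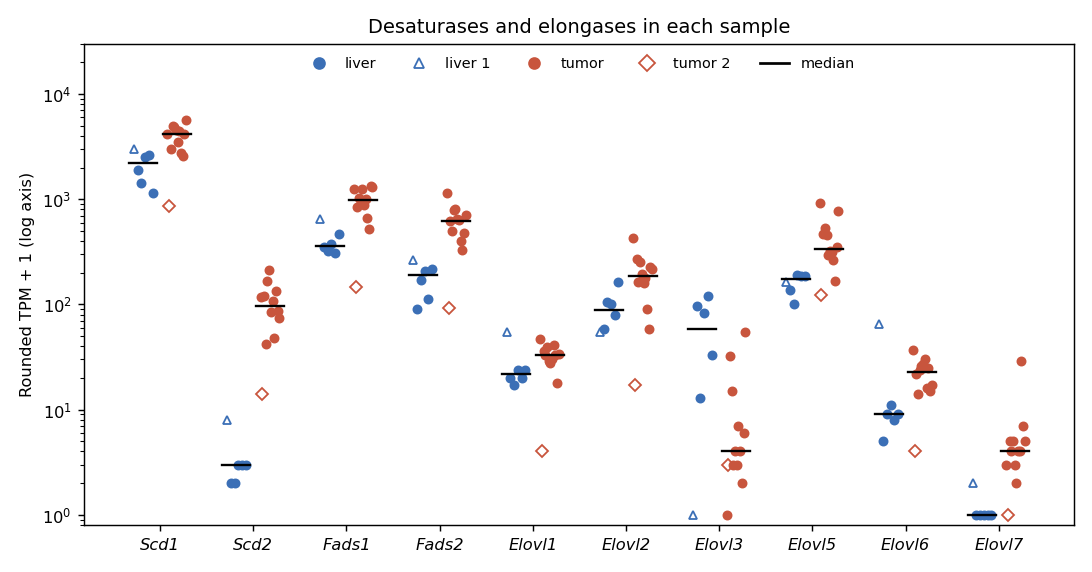
Level of each gene in every sample, as rounded TPM + 1 on a log axis, with livers in blue (n = 6), tumors in red (n = 12) and black lines at group medians. Open symbols mark liver 1 and tumor 2. Scd2 is the gene for which every tumor sits above every liver as deposited, and Elovl3 the one for which the tumor median lies below the liver median.

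**Figure D2:**
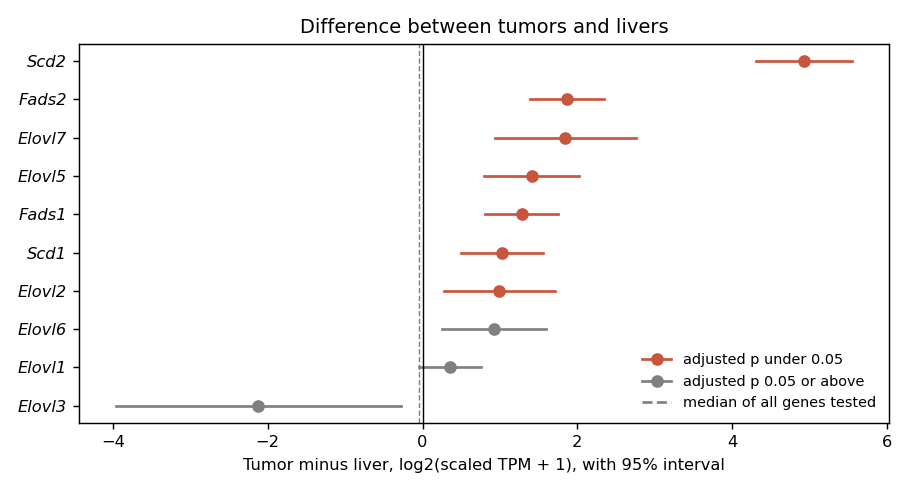
Tumor minus liver difference of each gene on the log2(scaled TPM + 1) scale with its 95% interval. Red points passed the test at an adjusted p under 0.05. Scd2 lies far to the right at 4.93, 6 other genes passed between 0.99 and 1.87, and the interval of Elovl3 is the widest.

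The contrast between the 2 stearoyl-CoA desaturases was examined first. Scd2 stood at 7, 1, 1, 2, 2 and 2 TPM in livers 1 to 6. In tumors it ran from 13 TPM in tumor 2 to 211 TPM in tumor 6, with a median of 96 and a next lowest value of 41. Every tumor was above every liver, which held for 0.454% of all genes tested as deposited and for 2.31% after scaling. The mean was 2.50 ± 2.26 TPM in livers (SD, n = 6) and 99.4 ± 54.9 TPM in tumors (SD, n = 12), a ratio of 39.8. Because a liver value of 1 or 2 is rounded, the ratio of means could lie anywhere from 33.0 to 49.96. On the log2(scaled TPM + 1) scale, which understates changes of low genes, the difference was 4.93 (SE 0.30, adjusted p = 3.7e-10), which ranked 8 among the 11452 genes tested.

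Scd1, the more abundant enzyme gene, did not fall. Livers ran from 1159 to 3011 TPM with a median of 2192, and tumors from 853 to 5668 TPM with a median of 4165.5. The value of 853 was that of tumor 2, the next lowest tumor had 2574, and 8 of 12 tumors lay above every liver. After scaling, tumor 2 stood at 4478 and 10 of 12 tumors lay above every liver. The log2 difference was 1.02 (SE 0.25, adjusted p = 0.0069). The rise was lost without scaling (0.80, adjusted p = 0.23), and with tumor 2 also set aside it was called again (0.98, adjusted p = 0.0043). It was not called within E19 (0.41, adjusted p = 0.48), whose livers 4 and 5 had 2503 and 2656 TPM, and was called within E20 (1.37, adjusted p = 0.033). The difference between tags was 0.95 (limma interaction p = 0.073 unadjusted, 0.95 adjusted over all genes).

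The make-up of the pair shifted while Scd1 remained the bulk of it. Scd2 made up 0.114% ± 0.0716 of the summed Scd1 and Scd2 level in livers (SD, n = 6; 0.0531% to 0.232%) and 2.59% ± 1.27 in tumors (SD, n = 12; 0.815% to 4.88%). All 12 tumors lay above all 6 livers, and the difference of 2.47 percentage points had p = 0.00054 in a two-sided exact permutation test. There were 430 to 1881 Scd1 transcripts per Scd2 transcript in livers and 19.5 to 122 in tumors, the lowest ratio being in tumor 10 and the highest in tumor 4. The liver ratios are coarse, because Scd2 was a rounded 1 or 2 TPM in every liver but liver 1. The log2 ratio of Scd2 to Scd1, with 1 TPM added to each, rose from -9.34 ± 0.60 to -5.39 ± 0.77 (SD, n = 6 and n = 12), a difference of 3.95 with p = 5.4e-05, the smallest that the exact permutation test over 18564 assignments can give. With 0.1 TPM added in place of 1 the difference was 4.502, with the same exact p. Within E19 the ratio differed by 4.39 (exact p = 0.028, the smallest possible there) and within E20 by 3.71 (exact p = 0.0079). The summed level also rose, from 10.81 ± 0.60 to 11.88 ± 0.41 on the log2 scale after scaling (SD, n = 6 and n = 12; exact permutation p = 0.00038). Within E19 alone the sum differed by 0.46 with an exact p of 0.31. Scd2 thus rose beside Scd1, and no tumor had more than 4.88% of the pair as Scd2.

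**Figure D3:**
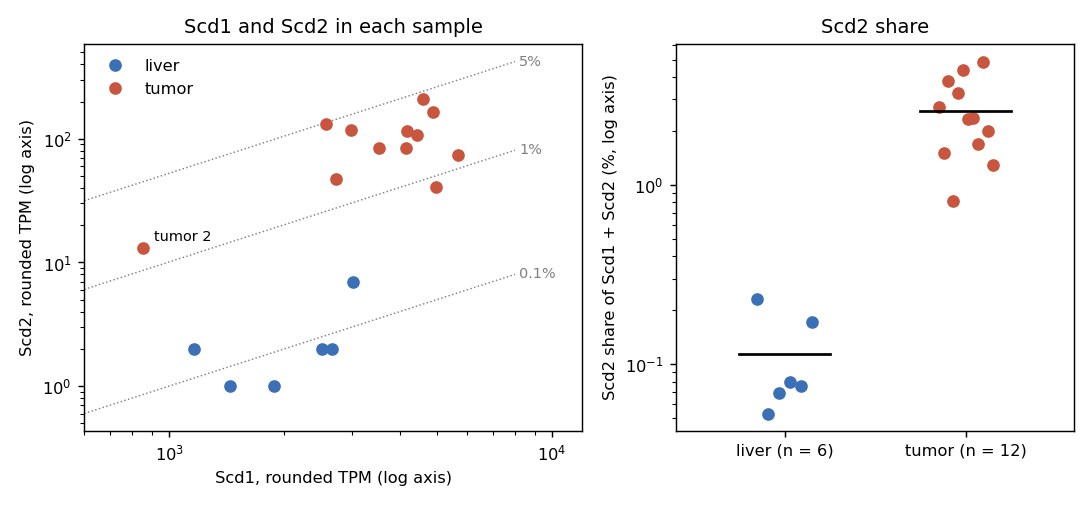
Left, Scd2 against Scd1 in each sample as rounded TPM on log axes, with dotted lines where Scd2 makes up 0.1%, 1% and 5% of the pair. Right, the Scd2 share of the pair in each sample on a log axis, with black lines at group means. Livers lie at 0.232% or less and tumors at 0.815% or more, with Scd1 values of the groups overlapping.

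Scd1 and Scd2 are neighbors on chromosome 19 of GRCm38.p6, with Scd2 at chr19:44293676-44306864 on the plus strand and Scd1 at chr19:44394450-44407709 on the minus strand, 87.6 kb apart. Their coding sequences are 90.4% identical (103 mismatches over 1068 aligned bases), which bears on how reads of 100 bases can be assigned. The sequences shown here are the exonic coding stretches of 100 bases where the genes are farthest apart and where they cannot be told apart, from the GRCm38 transcripts. Capitals mark the 31 bases that differ between the genes in the farthest stretch, at chr19:44406611-44406710 on the minus strand for Scd1 and chr19:44294963-44295062 on the plus strand for Scd2.
Scd1: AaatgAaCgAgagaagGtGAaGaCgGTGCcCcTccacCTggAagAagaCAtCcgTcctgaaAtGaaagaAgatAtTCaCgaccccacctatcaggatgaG
Scd2: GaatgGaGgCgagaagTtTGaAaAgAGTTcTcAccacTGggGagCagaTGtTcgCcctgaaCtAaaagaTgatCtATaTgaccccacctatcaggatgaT
The closest stretch has 0 mismatches, at chr19:44401706-44401805 on the minus strand for Scd1 and chr19:44299702-44299801 on the plus strand for Scd2.
Scd1 and Scd2: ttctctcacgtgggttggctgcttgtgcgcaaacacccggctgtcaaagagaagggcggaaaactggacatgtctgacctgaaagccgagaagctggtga
A read lying wholly in this last stretch fits either gene. Such stretches were few, since 14 of 499 aligned windows of 100 bases were identical and the median window had 6 mismatches. Over whole transcripts, 8.14% of the 31-base words of Scd1 and 6.81% of those of Scd2 also occurred in another gene, and 253 words were shared by both. The levels therefore rest on how the quantification divided shared reads. In livers, where Scd1 stood at 1159 to 3011 TPM, everything assigned to Scd2 came to at most 0.232% of the pair, or 0.248% allowing for rounding. How shared reads were divided was not tested in livers or in tumors. Scd3 and Scd4, the other close relatives, were listed at 0 in all 18 samples.

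Fads1 and Fads2, which desaturate polyunsaturated fatty acids, both rose. Fads2 ran from 90 to 266 TPM in livers (median 187.5) and from 91 to 1135 TPM in tumors (median 626.5), with 91 in tumor 2 and 331 in the next lowest tumor. As deposited 11 of 12 tumors, and after scaling all 12, lay above every liver. The log2 difference was 1.87 (SE 0.23, adjusted p = 7.3e-06), and it was called in each of the 36 alternative analyses, including both tags alone. Fads1 ran from 310 to 652 TPM in livers (median 360) and from 145 to 1347 TPM in tumors (median 991), the 145 again being tumor 2 and the next lowest 518. Its log2 difference was 1.28 (SE 0.23, adjusted p = 0.0004). The Fads1 rise was not called without scaling (1.06, adjusted p = 0.13) or within E19 (1.27, adjusted p = 0.065), where the difference itself was close to that within E20 (1.32, adjusted p = 0.017). Without scaling and with tumor 2 set aside, Fads1 was called (1.29, adjusted p = 0.00028). The 2 genes lie 81.4 kb apart on chromosome 19 (Fads2 at chr19:10062765-10101503, minus strand, and Fads1 at chr19:10182877-10196874, plus strand), and their coding sequences are 66.6% identical, with no aligned window of 100 bases closer than 26 mismatches.

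Elovl5 and Elovl2, the elongases of polyunsaturated chains, were also called higher, with different firmness. Elovl5 ran from 101 to 191 TPM in livers (median 173.5) and from 122 to 927 TPM in tumors (median 334). In 10 of 12 tumors it was above every liver, the exceptions being tumor 2 at 122 and tumor 10 at 165. The log2 difference was 1.41 (SE 0.29, adjusted p = 0.0018), lost without scaling (1.19, adjusted p = 0.067) and within E19 (0.80, adjusted p = 0.23). Without scaling and with tumor 2 set aside, Elovl5 was called (1.33, adjusted p = 0.0028). Elovl2 ran from 54 to 162 TPM in livers (median 88.5) and from 16 to 431 TPM in tumors (median 185). Its groups overlapped, with 7 tumors above every liver. Its log2 difference of 0.99 (SE 0.35) had an adjusted p of 0.0493, just under the threshold, and stayed under it in 4 of the 18 analyses that left out a sample (0.011 to 0.13).

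Promoter sequences from RefSeq (GRCm38.p6), 250 bases before to 50 after a start, were matched for 6 of the 10 genes: Elovl1, Elovl2, Elovl5, Elovl6, Elovl7 and Fads2, not Scd1, Scd2, Fads1 or Elovl3. Elovl5 and Fads2 are shown because they act in neighboring steps and both rose. Capitals mark matches on either strand to CCAAT (the letters NF-Y binds, ATTGG on the other strand), to CACGTG (an E-box, bound by USF and ChREBP/MLX among others), to CACCCCA (the core letters of a sterol regulatory element) or to GGGCGG (a GC box, CCGCCC on the other strand). The Elovl5 promoter is chr9:77917115-77917414, plus strand, and the Fads2 promoter chr19:10101454-10101753, minus strand.
Elovl5: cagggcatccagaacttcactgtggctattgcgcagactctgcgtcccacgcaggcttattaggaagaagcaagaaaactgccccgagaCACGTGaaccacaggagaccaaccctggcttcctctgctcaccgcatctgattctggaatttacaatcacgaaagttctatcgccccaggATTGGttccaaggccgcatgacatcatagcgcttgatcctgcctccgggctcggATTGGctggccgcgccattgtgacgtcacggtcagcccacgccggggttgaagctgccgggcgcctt
Fads2: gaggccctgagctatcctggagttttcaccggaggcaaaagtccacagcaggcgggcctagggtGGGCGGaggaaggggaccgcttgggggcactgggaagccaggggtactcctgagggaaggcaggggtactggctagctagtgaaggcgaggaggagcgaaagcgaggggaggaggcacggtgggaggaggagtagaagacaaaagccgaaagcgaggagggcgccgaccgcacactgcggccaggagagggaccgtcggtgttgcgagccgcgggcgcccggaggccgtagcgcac
The Elovl5 window held CCAAT 2 times and CACGTG 1 time, and the Fads2 window held GGGCGG 1 time, with no match overlapping another. Of 32851 mouse promoters of this length, 37.4% held CCAAT, 7.15% CACGTG, 7.62% CACCCCA and 35.7% GGGCGG. The Elovl6 window held none of the 4. These matches are letters in a window and no binding was measured.

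The elongases of saturated and monounsaturated chains moved less evenly. Elovl6, which extends palmitate to stearate, ran from 4 to 64 TPM in livers (median 8) and from 3 to 36 TPM in tumors (median 22). The 64 belonged to liver 1, and the other livers reached 10 at most, which was below 11 of the 12 tumors. The log2 difference of 0.92 (SE 0.32) had an adjusted p of 0.0504, and without liver 1 it was 1.36 with an adjusted p of 0.0001. Elovl6 was called higher within E19 alone (1.02, adjusted p = 0.041) but not within E20 alone (0.88, adjusted p = 0.46), which includes liver 1. Of the 31-base words of Elovl6, 6.41% also occurred in another gene. Elovl1, which extends very long saturated chains, ran from 16 to 54 TPM in livers (median 21) and from 3 to 46 TPM in tumors (median 32), with the 54 again in liver 1. Its log2 difference was 0.35 (SE 0.19, adjusted p = 0.22), and without liver 1 it was called higher (0.53, adjusted p = 0.035). Elovl7 was near the floor of the rounded values, at 0 in 5 livers and 1 in liver 1, and at 0 to 28 TPM in tumors (median 3), the 28 being tumor 10 and the next highest 6. Its log2 difference was 1.85 (SE 0.44, adjusted p = 0.0051), and it passed the filter on low values only through the tumors. Tumor 2 was listed at 0 for Elovl7, and 10 of 12 tumors were above every liver.

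Elovl3, an elongase of very long chains that varies with sex and time of day in liver, was the one gene with a negative difference. Livers ran from 0 to 119 TPM (median 57) and tumors from 0 to 54 TPM (median 3). Liver 1 was listed at 0, and tumors 3 and 12 reached 31 and 54, so the groups overlapped fully. The log2 difference was -2.12 (SE 0.88, adjusted p = 0.10). Without liver 1 it was -3.05 with an adjusted p of 0.0053, and within E19 it was -4.17 with an adjusted p of 0.014. It was -1.05 within E20 (adjusted p = 0.72), which includes liver 1. The difference between tags was 3.10 (limma interaction p = 0.096 unadjusted, 0.95 adjusted over all genes).

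In level per transcript, the order of the genes was alike in both groups apart from Scd2 and Elovl3. In livers it was Scd1, Fads1, Fads2, Elovl5, Elovl2, Elovl3, Elovl1, Elovl6, Scd2 and Elovl7 by mean TPM, and in tumors Scd1, Fads1, Fads2, Elovl5, Elovl2, Scd2, Elovl1, Elovl6, Elovl3 and Elovl7. Scd1 was above Fads1, and Fads1 above Fads2, in all 6 livers and all 12 tumors. Fads2 and Elovl5 were not separated sample by sample, since Fads2 was higher in 4 of 6 livers and 9 of 12 tumors. Elovl2 exceeded Elovl3 in 4 of 6 livers, and Elovl3 exceeded Elovl1 in 4 of 6. In tumors Scd2 was below Elovl2 in 10 of 12 and above Elovl1 in 12 of 12. Scd1 held 67.9% ± 8.69 of the summed level of the 10 genes in livers (SD, n = 6) and 62.9% ± 5.03 in tumors (SD, n = 12), and Scd2 held 0.0752% ± 0.0467 and 1.66% ± 0.846.

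Variation among the 12 tumors was compared for 5 pairs of genes that act in the same or neighboring steps, on the log2(scaled TPM + 1) scale, with permutation tests adjusted over the 5 pairs. Fads1 and Fads2 had r = 0.72 (permutation p = 0.0088, adjusted p = 0.043) and rho = 0.69 (permutation p = 0.016, adjusted p = 0.076). Without the 2 tumors farthest from the Fads1 median, r was 0.70 (permutation p = 0.025), and within the 7 E19 tumors it was 0.75 (permutation p = 0.053). Scd2 and Elovl6 had r = 0.67 (permutation p = 0.017, adjusted p = 0.043) and rho = 0.64 (permutation p = 0.030, adjusted p = 0.076). Without the 2 tumors farthest from the Scd2 median, r was 0.40 (permutation p = 0.25). Leaving them out also narrows the range of Scd2, and whether the relation rests on those tumors was not tested. Within E19 r was 0.72 (permutation p = 0.082). Elovl5 and Fads2 had r = 0.60 (permutation p = 0.040, adjusted p = 0.066) and rho = 0.43 (permutation p = 0.16, adjusted p = 0.27), and r = 0.23 (permutation p = 0.53) without 2 tumors. Within E19 their r was 0.80 (permutation p = 0.037). Scd1 and Scd2 had r = 0.02 (permutation p = 0.96, adjusted p = 0.96) and rho = -0.20 (permutation p = 0.53, adjusted p = 0.53), with r = -0.22 (permutation p = 0.55) without 2 tumors and r = 0.02 (permutation p = 0.94) within E19. Scd1 and Elovl6 had r = -0.18 (permutation p = 0.57, adjusted p = 0.71) and rho = -0.35 (permutation p = 0.27, adjusted p = 0.33), with r = -0.51 (permutation p = 0.13) without 2 tumors and r = 0.03 (permutation p = 0.96) within E19. The 5 E20 tumors were too few for a value of their own. For Scd1 with Scd2 and Scd1 with Elovl6, r depended on the scaling, as given in the closing section.

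**Figure D4:**
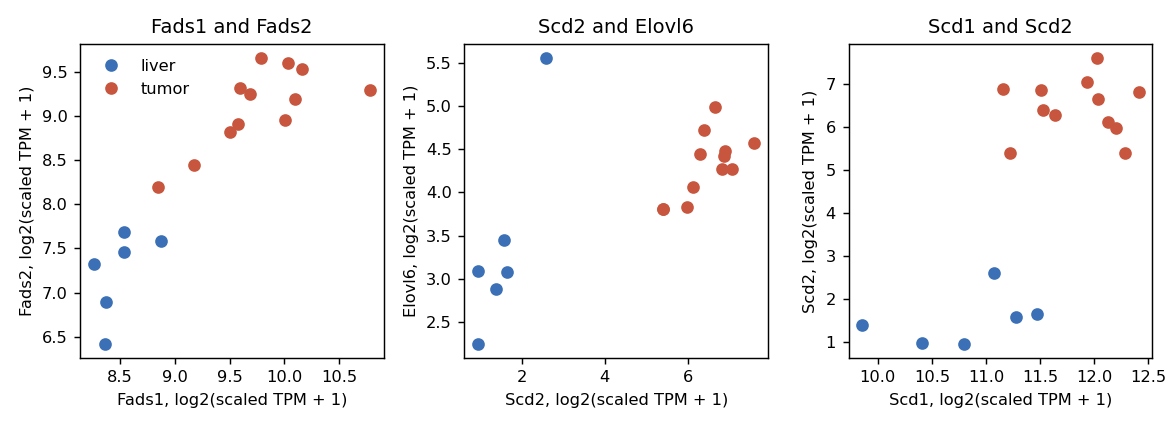
Pairs of genes in each sample on the log2(scaled TPM + 1) scale, with livers in blue (n = 6) and tumors in red (n = 12). Among tumors r was 0.72 for Fads1 and Fads2, 0.67 for Scd2 and Elovl6 and 0.02 for Scd1 and Scd2. Liver 1 is the blue point with the highest Elovl6.

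As a description over the same 12 tumors and 7088 genes, the genes most like Scd1 in pattern were Fads1 (r = 0.84), Fkbp5 (r = 0.83) and Acss2 (r = 0.82). The genes most like Scd2 were Rhbdd1 (r = 0.90), Snapc5 (r = 0.86) and Kif5c (r = 0.86). Kif5c, a kinesin motor gene, was itself higher in tumors (log2 difference 2.72, adjusted p = 1.7e-06), whereas Fkbp5 and Acss2 had differences of -0.42 (adjusted p = 0.30) and 0.26 (adjusted p = 0.63). All these values share the scaling of each tumor, and tumors 11 and 12 share a mouse.

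Genes that belong to the same families or work with these enzymes were examined next. Of 3 other family genes tested, none passed in either direction: Fads3, Fads6 and the sphingolipid desaturase gene Degs1 had log2 differences of 0.40, -0.23 and 0.10 (adjusted p = 0.37, 0.43 and 0.77). Scd3, Scd4, Elovl4 and Degs2 were listed at 0 in every sample. Of 5 partners of the elongation cycle tested, 2 were higher, the ketoacyl reductase gene Hsd17b12 (0.63, adjusted p = 0.0499) and the dehydratase gene Hacd2 (0.85, adjusted p = 0.041). Of 5 genes that supply electrons to desaturases, the reductase gene Cyb5r1 was higher (0.82, adjusted p = 0.0026) and Cyb5a, the cytochrome b5 that passes electrons on, was lower (-0.96, adjusted p = 0.035). Cyb5r1 was low, with a mean of 3.33 TPM in livers and 5.83 TPM in tumors. The far more abundant reductase gene Cyb5r3 had means of 526 and 632 TPM and did not pass (0.31, adjusted p = 0.33).

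Fatty acid synthesis, which feeds these enzymes, had 2 of 10 genes higher and 0 lower. These were Acly, which makes cytosolic acetyl-CoA (0.96, adjusted p = 0.045), and Pnpla3, a lipid droplet gene (2.62, adjusted p = 0.0053). Fasn, the synthase itself, ran from 51 to 822 TPM in livers and from 41 to 481 TPM in tumors, with a log2 difference of 0.75 (adjusted p = 0.22). Acaca, the carboxylase, had 0.83 (adjusted p = 0.070). Of 16 lipogenic regulators, Insig1 was higher (0.77, adjusted p = 0.013), while Mlxipl, which encodes ChREBP, Ppargc1b and Rxra were lower (-1.43, -1.07 and -0.57 with adjusted p = 0.039, 0.024 and 0.031). Srebf1, which encodes a main activator of Scd1 and Elovl6, had -0.10 (adjusted p = 0.88).

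The enzymes that use or break down the products split by direction. Of 8 acyl-CoA synthetases tested, 3 were higher, Acsl3 (1.76, adjusted p = 1.7e-05), Acsl4, which prefers arachidonate (1.58, adjusted p = 0.0008), and Acsl5 (0.98, adjusted p = 0.024). Another 3 were lower, Acsl1 (-1.49, adjusted p = 0.0058), Slc27a5 (-1.08, adjusted p = 0.0013) and Slc27a2 (-0.73, adjusted p = 0.013). Of 11 glycerolipid acyltransferases and phosphatases, Lpin3 was higher (1.13, adjusted p = 0.0005) and 4 were lower, Gpat4 (-1.25, adjusted p = 0.002), Dgat1 (-0.77, adjusted p = 0.0011), Dgat2 (-0.63, adjusted p = 0.035) and Agpat3 (-0.52, adjusted p = 0.034). Lpin3 was low, with a mean of 1.5 TPM in livers and 4.17 TPM in tumors. Lpin1 and Lpin2, with means of 212 and 165 TPM in livers, did not pass (-0.72 and -0.55, adjusted p = 0.27 and 0.21). None of 5 phospholipid remodelling genes passed. Of 10 genes of peroxisomal chain shortening, 6 were lower, led by Acaa1a (-1.38, adjusted p = 0.00021), Ehhadh (-1.33, adjusted p = 0.0071) and Acaa1b (-1.33, adjusted p = 0.024). Acaa1a and Acaa1b are close paralogs, and reads they share were not examined. The transporter gene Abcd2 was the 1 higher (2.32, adjusted p = 0.00036). The medians were 0.24 for synthesis, -0.20 for the synthetases, -0.55 for glycerolipid enzymes and -0.64 for peroxisomal genes, beside -0.04 for all genes tested.

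**Figure D5:**
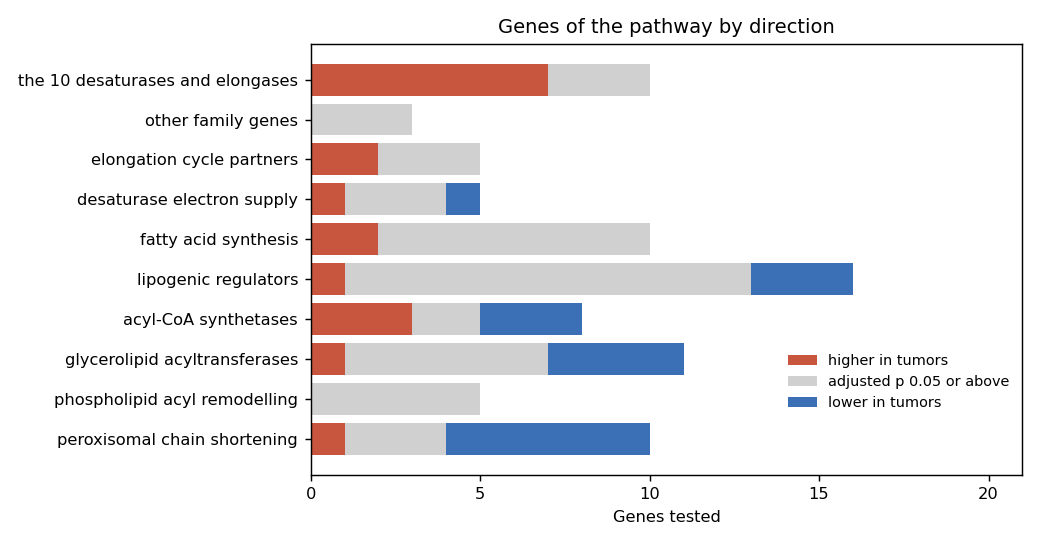
Number of genes tested in each list that were higher in tumors (red), lower (blue) or did not pass (grey). The 10 desaturases and elongases have 7 higher and 0 lower, whereas peroxisomal chain shortening has 1 higher and 6 lower.

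Some markers of other cell types also differed between the groups, beside 19% of all genes tested that were called in either direction. Sums in TPM are of the values as deposited, without scaling, and include tumor 2. Endothelial markers summed to 46 to 74 TPM in livers and 41 to 113 in tumors, with 3 of 8 higher (Pecam1, Cdh5 and Emcn). Stellate cell and fibroblast markers summed to 76 to 96 and 9 to 169, with Col1a1, Col1a2 and Col3a1 higher and Dcn and Lrat lower among 8. Macrophage markers summed to 48 to 137 and 65 to 739, with Spp1 the 1 of 5 tested that was higher, from 5 to 14 TPM in livers to 60 to 716 in tumors. Of 4 Kupffer cell markers tested, Clec4f was lower (-1.45, adjusted p = 0.039) and none was higher, with sums of 36 to 94 TPM in livers and 2 to 83 in tumors. Spp1 is also on the cholangiocyte list, whose Cftr was at 0 in every sample and whose Krt19, Krt7 and Epcam did not exceed 2 TPM. Of the adipocyte list, which matters because fat cells express Scd1, Adipoq, Plin1, Lep and Retn were listed at 0 in all samples and Fabp4 was higher (2 to 4 TPM in livers, 1 to 48 in tumors). Of 4 red blood cell genes tested, Alas2 was lower (-1.21, adjusted p = 0.039) and none was higher, with sums of 5 to 59 and 2 to 62. Lymphocyte markers summed to at most 14 TPM and neutrophil markers to at most 7 in any sample. Proliferation genes summed to 18 to 43 and 4 to 117, with 4 of 5 tested higher. After scaling, proliferation sums were 17.0083 to 30.8268 in livers and 20.9998 to 103.515 in tumors. Scaled sums of stellate cell and fibroblast markers were 55.92 to 89.46 in livers and 42.96 to 153.74 in tumors. Scaled sums of Kupffer cell markers were 33.94 to 100.11 in livers and still began low in tumors, at 2.62 to 66.17. The part of these cells in the desaturase and elongase values was not tested.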

How the data were processed

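RNA of 6 livers and 12 tumors was sequenced as 100-base paired reads. The authors quantified reads with Salmon 1.10.2 on GRCm38 (mm10). The deposited values are a score, TPM rounded to whole numbers, as inferred from the study's methods. Depth per value is unknown, so no counting intervals were given. The submitters' processing notes also name edgeR, with no role. Groups came from the labels.

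Values were scaled by an unweighted trimmed mean of M values (30% and 5% trimmed). The test covered genes that reached a scaled value of 1 in 6 or more samples, on log2(value + 1), with limma 3.58.1 (trend, R 4.3.3), 6 livers against 12 tumors, with Benjamini-Hochberg adjustment. Scd1 and Scd2 were compared by exact permutation tests, and pairs by 100000 permutations (two-sided). The limma test and the exact permutation test were tried on simulated data, and the test of pairs was not. Every sample came from a different mouse except tumors 11 and 12, which share 1. Beyond the 10 genes, up to 3 genes with the highest and 3 with the lowest called difference were named per list, with others, such as Fasn, Acaca and Srebf1, chosen after their values were seen. The genes and lists were chosen with earlier results of these data known. Alternatives are given in the closing section.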

Additional observations from a re-analysis of the deposited data

Results flagged for a closer look

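In 4 of 13 measures examined, 1 of the 6 livers lay far from the others by Dixon's gap ratio, and each time it was liver 1. The cut-off is one that about 1 in 20 groups of normally distributed values would pass, or about 0.65 of 13 independent measures. That rate need not hold here, because the values are rounded and some measures are built from the same genes. The 0.65 is therefore no measure of chance for these 4 results. There, Elovl6 stood at 64 TPM, the next highest liver having 10 (ratio 0.90), Scd2 at 7 against at most 2 (ratio 0.83), Elovl1 at 54 against at most 23 (ratio 0.82) and Elovl7 at 1 against 0 (ratio 1). The Elovl7 and Scd2 values differ by few rounded units. Liver 1 was also the highest liver for 7 of 10 fatty acid synthesis genes after scaling and the lowest for 7 of 10 peroxisomal genes. The cause was not tested.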

How the results depend on the processing

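Scd2 and Fads2 were called higher in all 36 alternative analyses, and Elovl7 in each of the 32 that could test it. Because Elovl7 met the filter on low values only through the tumors, its 32 calls are not comparable with the 36. Scd1, Fads1 and Elovl5 were each called in 34, and Elovl2 and Elovl6 in 11. Leaving out each sample in turn gave 6 to 8 of the 10 genes higher and 0 to 1 lower, the 1 being Elovl3 without liver 1, with 1623 to 3207 genes called in all, 921 to 1785 higher and 662 to 1422 lower. The lowest total came without liver 2 and the highest without tumor 2. Without scaling, 1341 genes were called (670 higher), 3 of the 10 higher and 1 lower. Unscaled and with tumor 2 set aside, also chosen after seeing the data, 2497 were called (1446 higher), with 7 of the 10 higher and 0 lower. With sample weights, 4579 were called (2338 higher, 2241 lower), with 9 of the 10 higher and 1 lower. E19 alone gave 1344 genes (558 lower), 4 of the 10 higher and 1 lower, and E20 alone 413 (298 higher, 115 lower). With liver 1 and tumor 2 both set aside, chosen after seeing the data, 3680 were called (1876 higher, 1804 lower), with 8 of the 10 higher and 1 lower. The cause of these shifts was not tested, and the single tags also held fewer samples.

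Within E19 the Scd2 share differed by 2.61 points (exact p = 0.056, smallest possible 0.028) and the log2 sum by 0.46 (exact p = 0.31). Without scaling, r between Scd1 and Scd2 was 0.68 (permutation p = 0.039) and between Scd1 and Elovl6 0.72 (permutation p = 0.050). As deposited, tumor 2 was the lowest tumor for Scd1 (853 TPM), Scd2 (13 TPM) and Elovl6 (3 TPM). Unscaled r values were not computed without tumor 2, so how far they rest on it was not tested. With tumors 11 and 12 averaged, r of Scd1 and Scd2 was -0.0015.

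Livers and tumors share replicate numbers, but no liver came from the same mouse as a tumor, so the numbers were not taken as pairs. In deviations from their group means, same-numbered samples correlated at a mean of 0.18 (-0.10 to 0.43). Samples with other numbers correlated at a mean of -0.04, and the cause was not tested. With the replicate block on 12 samples, 1359 genes were called (675 higher), against 1212 without the block (643 higher, 569 lower), and 6 of the 10 were higher in both. Rounding to whole TPM limits Elovl7 and liver Scd2 most.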
